A study of Mus musculus with 24 samples.

Results

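Epididymal white fat of 6 conventional and 6 germ-free mice fed lard was compared, 12 of the 24 arrays in the series. The groups were taken from the sample titles, and no measured value chose them. All mice were male, wild type and C57Bl/6, were 11 weeks old when feeding began, ate for 11 weeks a diet with 45% of its energy from fat, and were fasted for 4 h before sampling. Conventional mice carried a normal microbiota, and germ-free mice were kept free of microbes. The other 12 mice, 6 conventional and 6 germ-free, were fed menhaden fish oil under the same conditions. The fish oil mice were used to test whether a difference depended on the fat. They also entered the estimate of spread behind every lard test. An array was made from each mouse, and the tests weigh differences against the spread among mice. Litter, cage, source colony and date were not given in the sources used here, so bacterial status cannot be told apart from the colony that a group came from. The RNA came from the whole depot, and fewer cells of a type cannot be told apart from less RNA per cell.

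Epididymal white fat is a visceral depot that lies along the epididymis and stores triglyceride in large adipocytes. As it expands on a diet rich in saturated fat, it takes up macrophages, which gather around dying adipocytes, engulf their lipid and build up lysosomes. Gut bacteria are a source of lipopolysaccharide and other ligands of Toll-like receptors, which drive NF-kappaB and interferon programmes, and of short-chain fatty acids and indoles, which act on receptors such as Ffar2 and Ahr. Serum amyloid A, lipocalin 2 and chemokines are outputs of those programmes that adipose cells and macrophages both make. Germ-free mice lack these microbial inputs from birth.

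The promoters of 3 of the genes with the largest rises in conventional mice are shown because acute-phase and chemokine genes are classical outputs of transcription factors with known motifs. The windows run from 250 bases before to 50 after the start, are RefSeq sequences of GRCm38.p6, and are written 5′ to 3′ on the minus strand, on which all 3 genes lie. Capitals mark matches on either strand to the NF-kappaB motif, to the interferon response element, GAAA and GAAA with any 2 bases between them, and to the C/EBP motif TTGCNNAA. Saa3, serum amyloid A3, lies at chr7:46715627-46715926, Lcn2, lipocalin 2, at chr2:32387690-32387989, and Cxcl10, a chemokine for T cells, at chr5:92348840-92349139.
Saa3: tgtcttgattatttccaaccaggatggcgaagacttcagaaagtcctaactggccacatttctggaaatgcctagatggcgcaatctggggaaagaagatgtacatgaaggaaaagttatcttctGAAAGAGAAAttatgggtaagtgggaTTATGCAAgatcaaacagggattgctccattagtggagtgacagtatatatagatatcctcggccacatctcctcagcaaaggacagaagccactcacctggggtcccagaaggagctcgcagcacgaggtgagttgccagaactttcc
Lcn2: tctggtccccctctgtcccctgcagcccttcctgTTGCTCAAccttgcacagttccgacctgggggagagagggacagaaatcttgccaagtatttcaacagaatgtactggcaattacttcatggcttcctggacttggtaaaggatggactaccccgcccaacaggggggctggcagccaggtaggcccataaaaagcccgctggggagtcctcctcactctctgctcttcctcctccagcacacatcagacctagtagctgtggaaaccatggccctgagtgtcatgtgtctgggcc
Cxcl10: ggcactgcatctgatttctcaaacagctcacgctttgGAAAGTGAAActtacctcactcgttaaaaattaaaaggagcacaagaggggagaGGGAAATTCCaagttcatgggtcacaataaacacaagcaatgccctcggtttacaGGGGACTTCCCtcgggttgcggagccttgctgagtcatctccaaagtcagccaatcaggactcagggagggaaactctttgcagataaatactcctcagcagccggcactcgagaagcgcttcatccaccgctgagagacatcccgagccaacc
The Cxcl10 window held 3 NF-kappaB matches, of which a pair overlap, and 1 interferon response element. Saa3 held 1 interferon response element and 1 C/EBP match, whose letters also match the D-box motif TTATGNAA of clock output factors, and Lcn2 held 1 C/EBP match. Of 27025 promoters of the same length, 8.18% held an NF-kappaB match, 3.49% an interferon response element and 10.8% a C/EBP match. Of the 18 acute-phase, chemokine and interferon-stimulated genes that were higher in conventional mice, 12 had a window in the table. An interferon response element was found in 5 of these 12, namely Saa3, Cxcl10, Bst2, Ifit1 and Irgm1. The set was drawn in part from a list of interferon-stimulated genes, so its choice favours this element. A C/EBP match was found in 3 of the 12 and an NF-kappaB match in 2. A match describes the letters and is not a measured binding site.

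The deposited values are log2 signals, with array medians of 7.09 to 7.18 in conventional and 7.09 to 7.14 in germ-free mice. The adipocyte genes Adipoq and Fabp4 had group medians above 13 log2, and none of 11 epididymis and 8 testis transcripts passed between the groups; levels of different probe sets are not comparable, so no purity is read from them. Some mice stood apart from their group. Along principal component 1 (42.1% of the variance among the 12 mice), conventional mice 1 to 4 scored -34.14 to -19.55. Conventional mice 5 and 6 scored 7.43 and 16.58, inside the range of -3.56 to 30.66 of the germ-free mice. Germ-free mouse 4 stood apart along component 2 (20.5% of the variance), with a score of 35.75. Intestinal epithelium transcripts averaged 9.02 log2 in that mouse, 6.53 in germ-free mouse 5 and 6.38 in germ-free mouse 2, against 5.79 to 6.21 in the other 9 mice. The results below are therefore also given without conventional mice 5 and 6 and germ-free mice 2, 4 and 5, referred to as the 5 mice. These mice were chosen from the same values that are tested. Leaving out conventional mice that lie among the germ-free mice favours larger differences, so these fits are not an independent check.

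**Figure D1:**
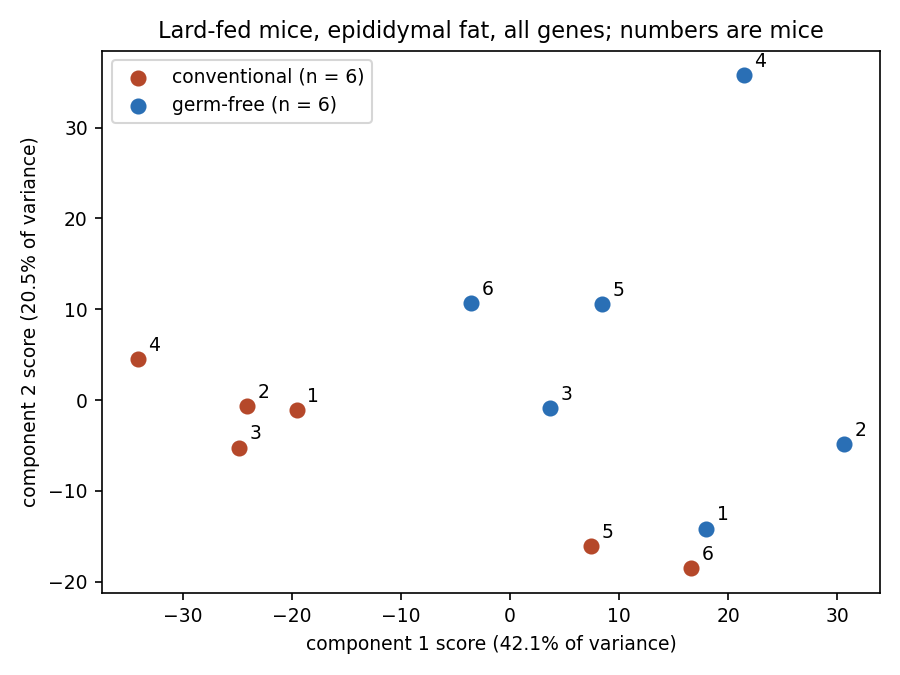
Scores of the 12 lard-fed mice on principal components 1 and 2 of all genes, in arbitrary units, with each point labelled by its mouse number. Conventional mice 1 to 4 lie from -34.14 to -19.55 on component 1, mice 5 and 6 lie among the germ-free mice, and germ-free mouse 4 lies at 35.75 on component 2.

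The comparison addresses how a microbiota alters visceral fat when the dietary fat is lard. Genes higher in conventional mice included the acute-phase gene Saa3, the chemokines Ccl8 and Cxcl10, the immunoproteasome subunit Psmb8 and most subunits of the respiratory chain. Genes lower in conventional mice included Inmt, Oxtr, Klf9 and Pdcd4 and a minority of the lysosome, matrix and clock lists. A gene was counted as past the threshold when its Benjamini-Hochberg adjusted p from limma, over 19938 genes, was below 0.05. By this rule 3240 genes, or 16.3%, passed, against 5608 with an unadjusted p below 0.05. Of all genes 8.77% were higher in conventional mice and 7.48% were lower, and the median difference over all genes was 0.02 log2. Most differences were small: 294 genes passed with at least a 1.5-fold difference, 139 higher and 155 lower. In 825 genes the values of the groups did not overlap, and 750 of these passed.

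The count turned on which mice were included, and it was 2199 when the lard arrays were fitted alone. Without conventional mice 5 and 6, 25.5% of genes passed, and without germ-free mice 2, 4 and 5 only 0.888% passed. The latter fit had fewer germ-free mice and kept conventional mice 5 and 6. In it, all of the 3240 genes kept the sign of their difference. Differences of at least 1.5-fold, past the threshold or not, numbered 232 in that fit against 427 with all mice. A call lost there is therefore not by itself a lost difference. Without all 5 mice, 14.5% passed, and 2085 of the 2889 genes that passed were among the 3240. In each of 12 fits that left out a single mouse, 2040 of the 3240 genes stayed past the threshold. The count of genes with at least a 1.5-fold difference was 159 without conventional mouse 3, 170 without conventional mouse 4 and 177 without germ-free mouse 2. It was 495 without conventional mouse 5 and 624 without conventional mouse 6. With all 5 mice left out it was 737, and 273 of the 294 remained past the threshold. With germ-free mice 2, 4 and 5 left out, 63 of the 294 did.

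Some acute-phase and antimicrobial proteins were higher in conventional mice. Of 15 measured, 5 rose, none fell, and the list's median difference was 0.26 log2; without germ-free mice 2, 4 and 5, 1 rose. Saa3, an acute-phase protein made in fat by adipocytes and macrophages, ranged from 10.44 through a median of 11.10 to 11.97 log2 in conventional mice and from 8.56 through 9.24 to 9.70 in germ-free mice. Every conventional mouse lay above every germ-free mouse. The difference was 1.94 ± 0.29 log2 (SE, 6 against 6 mice, limma adjusted p = 0.000281), or 3.84-fold, and 2.11 without the 5 mice (limma adjusted p = 0.000458). Lcn2, which binds bacterial siderophores, ranged from 10.56 through 11.01 to 11.86 in conventional mice and from 9.44 through 9.98 to 10.40 in germ-free mice, also without overlap. It rose by 1.13 ± 0.29 (limma adjusted p = 0.00966), and without the 5 mice the value was 0.92 with an adjusted p of 0.148. S100a8, a calcium-binding protein abundant in neutrophils, rose by 1.02, again without overlap, while the neutrophil list had 1 of 10 markers higher, the resistin-like gene Retnlg, and a median difference of 0.11 log2. Saa2 rose by 0.42 and the haemoglobin-binding protein haptoglobin, Hp, by 0.26. Both missed the threshold without the 5 mice, with limma adjusted p of 0.123 and 0.0989. Saa2 and Saa1 have near-identical sequences, so their signals may be shared. Retnlg missed the threshold without any one of conventional mice 1 to 4 or germ-free mice 1, 2, 4 and 6, with adjusted p up to 0.123.

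Of 27 chemokines and receptors, 6 rose and none fell, with a median difference of 0.24 log2. Without conventional mice 5 and 6, 13 rose and 2 fell, without germ-free mice 2, 4 and 5 none passed, and without all 5 mice 6 rose, Ccl5 not among them. Ccl8, a ligand that attracts monocytes and lymphocytes, ranged from 8.38 through 9.85 to 10.38 log2 in conventional and from 7.84 through 8.13 to 8.60 in germ-free mice. Only conventional mouse 6 fell inside the germ-free range. The difference was 1.45 ± 0.39 (limma adjusted p = 0.012). Cxcl10, an interferon-induced ligand of Cxcr3, ranged from 9.56 through 9.77 to 10.64 in conventional and from 8.30 through 9.02 to 9.19 in germ-free mice, without overlap, and rose by 1.07 ± 0.22 (limma adjusted p = 0.00206). The monocyte chemokine Ccl7 rose by 0.89, the T cell chemokine Ccl5 by 0.88, Ccl22, a product of dendritic cells and macrophages, by 0.48 and the stromal chemokine Cxcl12 by 0.38. Ccl7 missed the threshold without any one of conventional mice 2, 3 and 4 or germ-free mice 2, 4, 5 and 6, with adjusted p up to 0.11, and Ccl5 did so without the 5 mice (adjusted p = 0.184). The value for Ccl2, the main monocyte attractant of fat, was 0.75 ± 0.28 with a limma adjusted p of 0.0659. The cytokines Tnf, Il1b and Il6 had differences of 0.16, 0.13 and 0.13 log2, none past the threshold. Of 19 markers of macrophages, a source of chemokines, 1 was higher and 2 were lower, with a median difference of -0.01 log2. Together these were 15.8% of the list, near the 16.3% of all genes that passed. The level of the markers, as the list mean, was 9.59 to 10.01 log2 in conventional and 9.58 to 9.91 in germ-free mice. The counts were 4 higher and 5 lower without conventional mouse 6, 3 and 3 without conventional mouse 5, and 2 and 2 without germ-free mouse 3 or 6. Their part in the chemokine result was not tested.

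Antigen processing and interferon-induced genes were higher in smaller steps. Psmb8, the catalytic subunit of the immunoproteasome that is swapped in under interferon, ranged from 8.47 through 8.84 to 9.11 log2 in conventional and from 8.09 through 8.27 to 8.35 in germ-free mice. The groups did not overlap, and the difference was 0.59 ± 0.09 (limma adjusted p = 0.000281). Its partners Psmb9 and Psmb10 rose by 0.44 and 0.39, so that 3 of 9 genes of class I presentation rose and 1, the peptide-loading factor Tapbp, fell, by 0.17. Tapbp missed the threshold in 9 of the 12 fits without a single mouse, all but those without conventional mouse 3 or 6 or germ-free mouse 1 (adjusted p up to 0.125). Of 24 interferon-stimulated genes, 7 rose and 1 fell, with a median difference of 0.20. The nucleic acid sensor Zbp1 rose by 0.67, the receptor chaperone Rtp4 by 0.64, the apoptosis factor Xaf1 by 0.56, the tethering factor Bst2 by 0.50 and Ifit1, which binds foreign RNA, by 0.43, whereas the guanylate-binding protein Gbp7 fell by 0.46. The count of higher genes was 4 without any one of conventional mice 2 and 3 and germ-free mice 4 and 5, and 8 without the 5 mice, but 1 without germ-free mice 2, 4 and 5. Ifit1 missed the threshold without any one of conventional mice 2 to 4 or germ-free mice 1 to 6, with adjusted p up to 0.128. For Gbp7 the value without the 5 mice was -0.14 (adjusted p = 0.646).

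Genes of class II presentation and of cytotoxic cells were higher in part. Of 11 genes of class II presentation, 4 rose and none fell: the chaperones H2-DMa, by 0.36, H2-Ob, by 0.34, and H2-Oa, by 0.29, which load peptides or restrain loading, and the costimulatory molecule Cd86, by 0.46. Without the 5 mice only Cd86 remained past the threshold, with a difference of 0.61 (limma adjusted p = 0.0156), and H2-Ob was also lost without any one of conventional mice 3 and 5 or germ-free mice 1 and 5, with adjusted p up to 0.0779. Of 12 markers of natural killer and cytotoxic cells, 5 rose and none fell, with a median of 0.33, among them Cd7 by 0.59, Klrd1 by 0.53 and Gzma by 0.51. Klrd1 missed the threshold without conventional mouse 3 (adjusted p = 0.0501), and Gzma without any one of conventional mice 1 to 4 or germ-free mice 1, 2 and 5 (adjusted p up to 0.0952). That count was 2 without conventional mouse 3, and 3 without any one of conventional mice 1 and 2 and germ-free mice 1, 2 and 5. It was 1 without the 5 mice and 0 without germ-free mice 2, 4 and 5, which also left no class II gene past the threshold. Of 15 T cell markers 2 rose, a share near the 8.77% of all genes, including Cd3g by 0.68, which missed the threshold without any one of conventional mice 2 to 5 or germ-free mice 2 to 5 (adjusted p up to 0.101). The T cell count was 0 without any one of conventional mice 2 and 4 or germ-free mice 2 and 4, 1 without any one of conventional mice 3 and 5 or germ-free mice 3 and 5, 4 without germ-free mouse 6 and 5 without conventional mouse 6. Of 14 markers of B cells and plasma cells 1 rose, again near that share. Among the largest single rises were the lectins Cd209d, at 1.28, Cd209a, at 0.78, and Mgl2, at 0.78, which are found on dendritic cells and macrophages, and the interferon-inducible membrane protein Ifitm6, at 1.28. Ifitm6 ranged from 7.90 through 9.32 to 9.56 in conventional and from 7.22 through 7.68 to 8.18 in germ-free mice.

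Rnase2a, an eosinophil-associated ribonuclease, had the largest rise of all named genes, 2.66 ± 0.88 log2 (limma adjusted p = 0.04), or 6.33-fold. Conventional mice 1 to 4 had values of 9.78 to 11.80, mouse 5 had 7.36 and mouse 6 had 6.41, whereas germ-free mice had 5.22 to 8.56. Conventional mice 5 and 6 thus lay inside the germ-free range. Rnase2a missed the threshold without any one of conventional mice 1 to 4 or germ-free mice 1, 2 and 4 (adjusted p up to 0.114), and its difference was 3.74 without the 5 mice (adjusted p = 0.00795). Cd209d showed the same division, with 10.82 to 11.32 in conventional mice 1 to 4 and 9.11 and 8.71 in mice 5 and 6, against 8.41 to 9.82 in germ-free mice. Cd209a and Cd209d missed the threshold without any one of conventional mice 1 to 3 or germ-free mice 1 and 2, and Cd209d also without conventional mouse 4, with adjusted p up to 0.0774. Of 16 markers of alternative activation and type 2 cells, none passed in either direction.

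**Figure D2:**
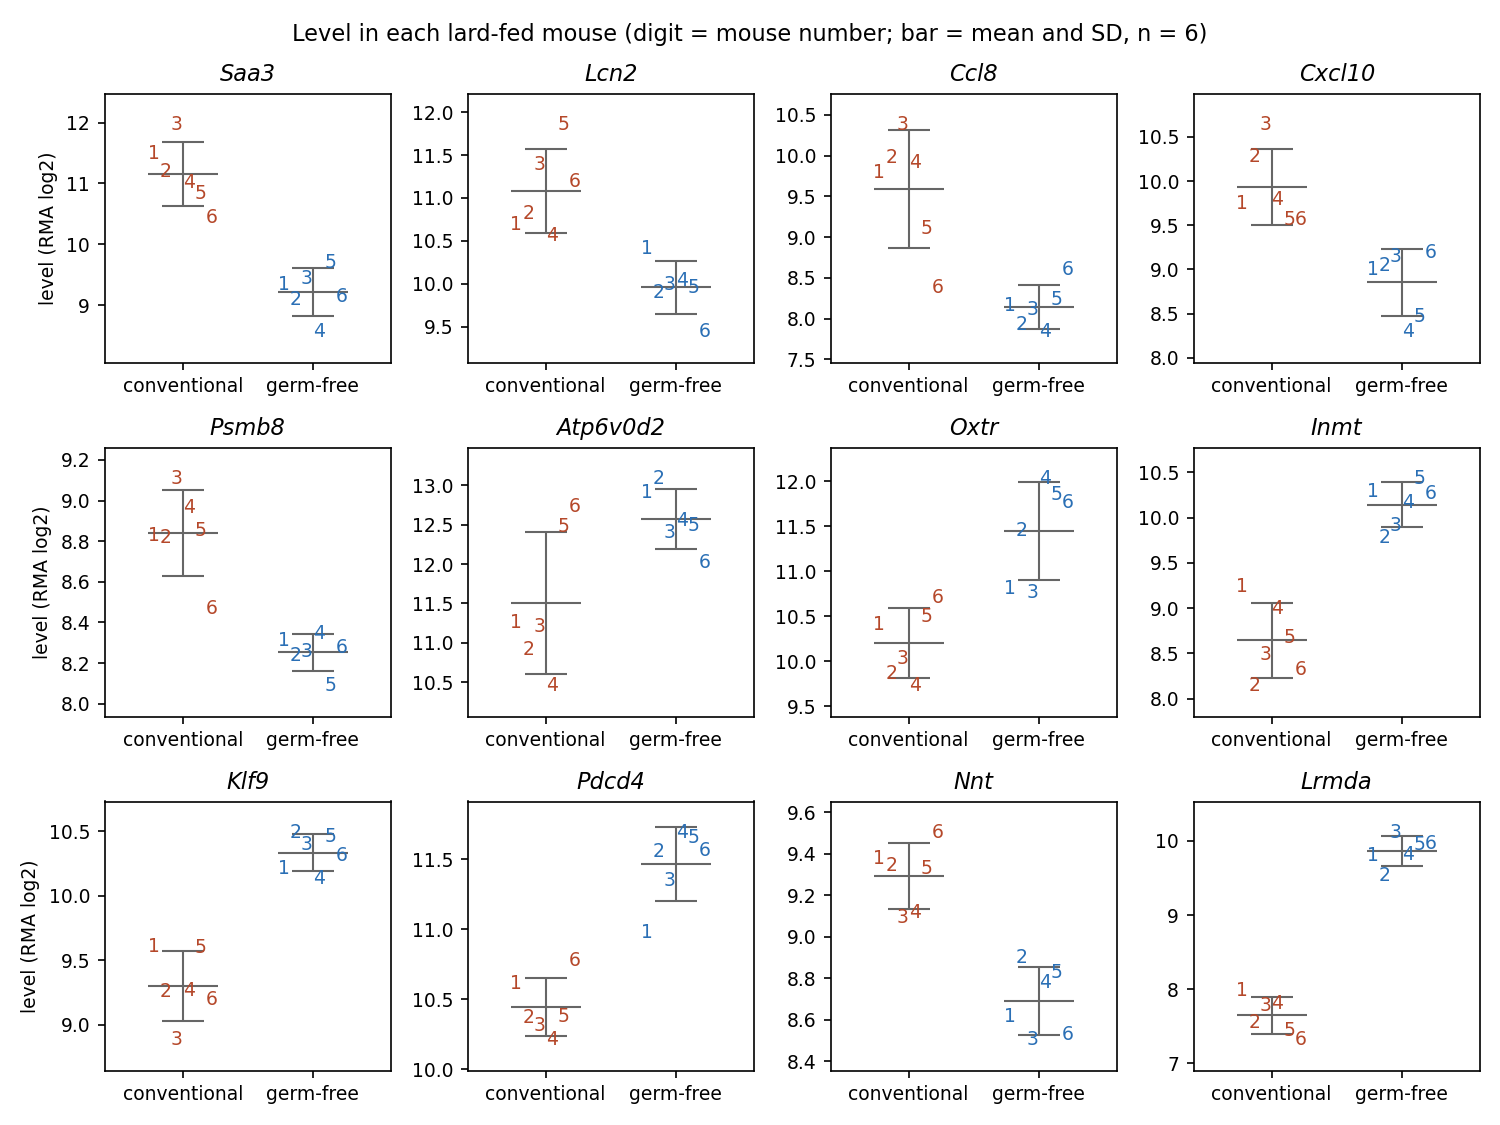
RMA log2 level of 12 genes in each lard-fed mouse, with the digit giving the mouse number, conventional mice on the left and germ-free mice on the right of each panel. Bars give the mean and SD of 6 mice; Saa3, Lcn2, Cxcl10 and Psmb8 are higher and Oxtr, Inmt, Klf9, Pdcd4 and Lrmda lower in every conventional mouse than in every germ-free mouse, whereas conventional mice 5 and 6 lie inside the germ-free range for Atp6v0d2.

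Receptors and signalling proteins for microbial products were mixed. None of 14 Toll-like receptors and co-receptors passed, and their median difference was -0.13 log2; Tlr4, the lipopolysaccharide receptor, had a difference of -0.12 ± 0.10 (limma adjusted p = 0.478). Without conventional mice 5 and 6, 6 of the 14 were lower and 1 was higher. Among 21 adaptors and signalling proteins 5 fell and 1 rose. Of the 5, the adaptor Tirap fell by 0.38, the ligase Traf6 by 0.29, the brakes Tnfaip3, or A20, by 0.36 and Irak3 by 0.25, and Tnip3, a partner of A20, by 0.82, and its relative Tnip1 rose by 0.31. The count of lower genes was 3 without conventional mouse 4. Tnip3 missed the threshold without any one of conventional mice 1 to 4 or germ-free mice 1 to 5 (adjusted p up to 0.133), Irak3 without conventional mouse 4 (adjusted p = 0.0503), and Tnip1 without germ-free mouse 2 (adjusted p = 0.0538). Of 12 NOD-like receptor and inflammasome genes 2 rose, a count of 0 without any one of conventional mice 1 to 3 or germ-free mouse 6, 1 without any one of conventional mouse 4 and germ-free mice 2 and 5, and 3 without conventional mouse 6. The common adaptor Myd88 had a difference of -0.05 (limma adjusted p = 0.738).

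Receptors for microbial metabolites gave 1 rise and 2 falls among 20, together a share near the 16.3% of all genes that passed. The list as a whole thus did not stand out, and the values below are for single genes. Ffar2, the receptor for short-chain fatty acids, ranged from 9.17 through 9.76 to 9.85 log2 in conventional and from 8.76 through 9.14 to 9.25 in germ-free mice, and rose by 0.50 ± 0.12 (limma adjusted p = 0.00427). Only the lowest conventional mouse lay inside the germ-free range. Ahr, the aryl hydrocarbon receptor, which binds indoles, ranged from 8.40 through 8.45 to 8.63 in conventional and from 8.72 through 8.87 to 9.00 in germ-free mice, without overlap. It fell by 0.38 ± 0.06 (limma adjusted p = 0.000504). Its partner Arnt fell by 0.19 (limma adjusted p = 0.0405), and it missed the threshold in 10 of the 12 fits without a single mouse, all but those without conventional mouse 6 or germ-free mouse 4 (adjusted p up to 0.115), which left 1 lower gene in the list.

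Some lysosome genes were lower in conventional mice. Of 21, 8 fell and none rose, with a median of -0.28 log2; when the lard arrays were fitted alone, 1 fell. The proton pump subunit Atp6v1a fell by 0.63 and the cholesterol exporter of the lysosome, Npc1, by 0.46. Of 16 markers of lipid-associated macrophages 3 fell, 1 rose and 12 did not pass, with a median of -0.39; with the lard arrays alone none fell and 1 rose. Atp6v0d2, a pump subunit induced in macrophages with a heavy lipid load, was 10.46 to 11.26 in conventional mice 1 to 4, whereas mice 5 and 6, at 12.47 and 12.73, lay within the germ-free range of 12.02 to 13.09. The difference was -1.07 ± 0.36 (limma adjusted p = 0.0414). Dcstamp, which drives macrophage fusion, fell by 0.92, the lysosomal acid lipase Lipa by 0.55, and the fatty acid carrier Fabp5 rose by 0.38. The list means of the lipid-associated markers were 10.87 to 11.14 in conventional mice 1 to 4, 11.81 and 11.91 in mice 5 and 6, and 11.31 to 11.99 in germ-free mice. Mature adipocyte markers, as the mean of 15 genes, were 11.75 and 11.83 in conventional mice 5 and 6, 12.10 to 12.17 in the other conventional mice and 11.89 to 12.34 in germ-free mice, and the part of that difference in the macrophage result was not tested.

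Without the 5 mice, 14 of the 21 lysosome genes and 7 of the 16 lipid-associated markers were lower, and none was higher. Without single mice the lysosome count was 5, for any one of conventional mice 1 to 4 and germ-free mice 1 and 2, or 13, for conventional mouse 6. The count of lower lipid-associated markers was 1 without any one of conventional mice 1, 3 and 4 and germ-free mice 1, 2, 4 and 5, 5 without conventional mouse 5 and 6 without conventional mouse 6. With germ-free mice 2, 4 and 5 left out no gene of either list passed. Atp6v0d2, Lipa, Fabp5 and Npc1 each missed the threshold without some of these single mice, with adjusted p up to 0.124, 0.117, 0.0963 and 0.0943. Among other macrophage genes, Csf1r, the receptor for the macrophage growth factor, fell by 0.59 ± 0.15 (limma adjusted p = 0.00826), and Mertk, a receptor for dying cells, by 0.40, while Cx3cr1, a receptor of monocytes, rose by 0.41. The values for Itgax, or CD11c, Adgre1, or F4/80, and Trem2 were -0.87, -0.56 and -0.52, with limma adjusted p of 0.0572, 0.0727 and 0.247. Without the 5 mice, a choice that favours larger differences, all 3 passed, with limma adjusted p of 0.00481, 0.00895 and 0.0411. Gdf3, a growth factor of fat macrophages, fell by 0.99 and Creg1, a secreted lysosomal glycoprotein, by 1.09. For both, conventional mice 1 to 4 lay below all germ-free mice and conventional mouse 6 did not.

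Of 8 genes of sterol ester handling and efflux 3 fell: Nceh1, which hydrolyses cholesterol esters, by 0.84, and the transporters Abcg1 and Abca1 by 0.65 and 0.39. Abca1 was 10.98 to 11.16 log2 in conventional and 11.29 to 11.63 in germ-free mice, without overlap (limma adjusted p = 0.00126). Nceh1 missed the threshold without any one of conventional mice 1 to 4 or germ-free mice 1, 2 and 4 (adjusted p up to 0.111), and the value for Abca1 was -0.27 without the 5 mice (adjusted p = 0.0761). Of 20 genes of sterol synthesis and uptake 5 were higher and none lower. Ebp, a sterol isomerase, ranged from 10.22 through 10.39 to 10.54 in conventional and from 9.69 through 9.90 to 9.96 in germ-free mice, without overlap, and rose by 0.51 ± 0.06 (limma adjusted p = 9.51e-05). Pmvk rose by 0.50 and Dhcr7, the last enzyme before cholesterol, by 0.44. Dhcr7 missed the threshold without any one of conventional mice 3, 5 and 6 or germ-free mice 2 and 5, with adjusted p up to 0.0816.

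Some genes of matrix remodelling were lower. Of 21 on the remodelling and crosslinking list 7 fell, none rose and 14 did not pass, with a median of -0.18 log2. The count was 11 without the 5 mice, 4 with the lard arrays alone and 2 without germ-free mice 2, 4 and 5. Mmp11, a protease of stromal cells, ranged from 8.19 through 8.46 to 8.90 in conventional and from 9.14 through 9.34 to 9.46 in germ-free mice. The groups did not overlap, and the difference was -0.79 ± 0.11 (limma adjusted p = 0.000279). The gelatinase Mmp2 fell by 0.70, the matricellular protein Thbs2 by 0.70 and the protease inhibitor Timp3 by 0.57. Of 16 collagens 1 fell, Col1a2, by 0.52, a share near the 7.48% of all genes. The matrix count was 4 without any one of conventional mice 2, 3 and 4. Thbs2 missed the threshold without any one of conventional mice 1 to 4 or germ-free mice 1, 2 and 4, and Col1a2 without any one of conventional mice 1, 3 and 4 or germ-free mouse 2, with adjusted p up to 0.086 and 0.0686. Among 13 markers of adipose progenitors 1 rose and 1 fell, together 15.4%, a share near the 16.3% of all genes that passed. None of 15 mesothelial markers passed.

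**Figure D3:**
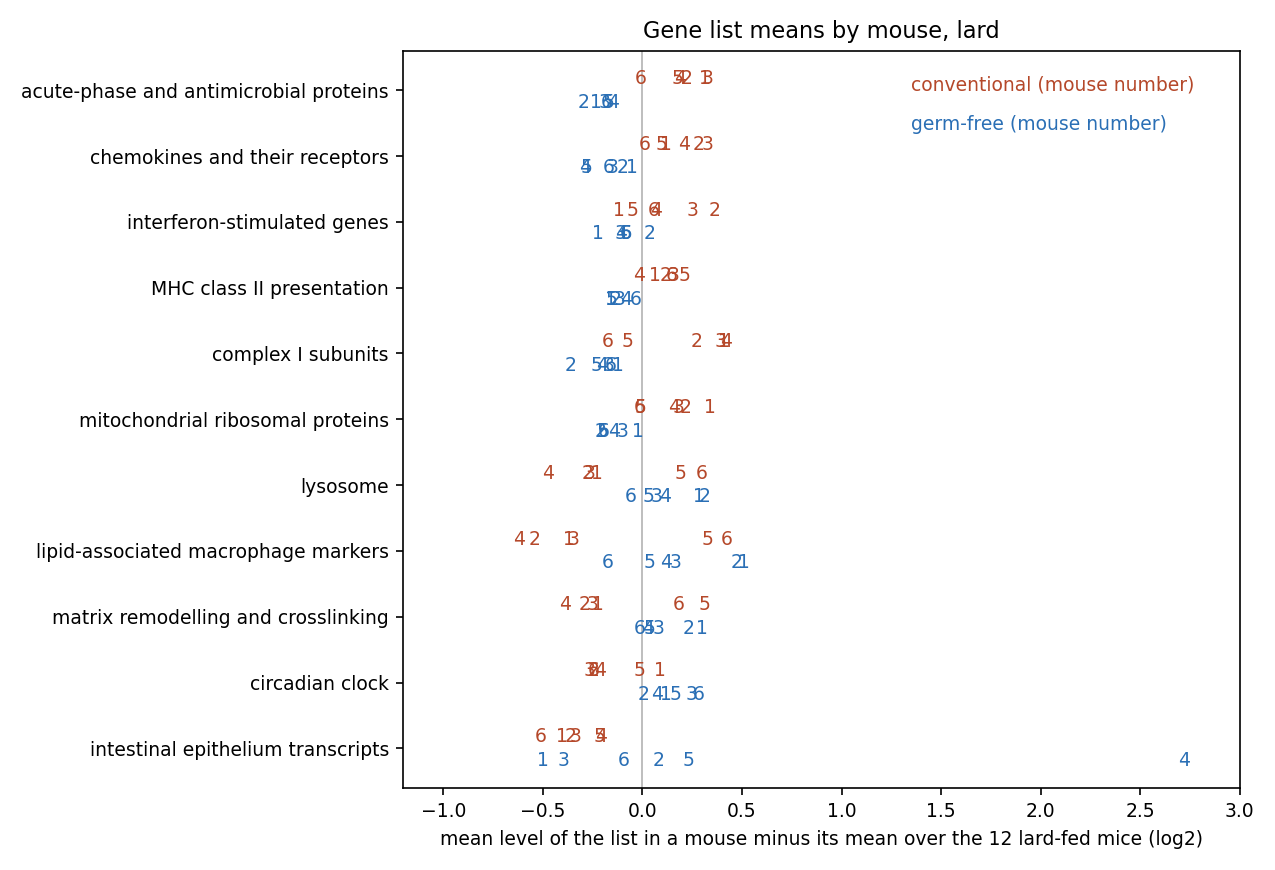
Mean log2 level of 11 gene lists in each lard-fed mouse, minus the mean of that list over the 12 mice, with digits giving mouse numbers and conventional mice drawn above germ-free mice. Acute-phase and chemokine lists separate the groups, conventional mice 5 and 6 lie with the germ-free mice for lysosome, lipid-associated macrophage and matrix lists, and germ-free mouse 4 stands out for intestinal transcripts.

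Genes of the respiratory chain were higher in conventional mice in the largest numbers. Complex I passes electrons from NADH to ubiquinone and has many small subunits encoded in the nucleus. Of 34 measured subunits 28 rose and none fell, with a median of 0.47 log2 against 0.02 over all genes. Ndufs6 ranged from 8.96 through 9.60 to 9.84 in conventional and from 8.61 through 8.88 to 8.96 in germ-free mice, without overlap, and rose by 0.65 ± 0.11 (limma adjusted p = 0.000542). Ndufa2 rose by 0.67. Of 36 subunits of complexes II to V 29 rose and 2 fell, and of 30 mitochondrial ribosomal proteins 19 rose and none fell. The cytochrome oxidase subunit Cox5a rose by 0.56, Uqcr11 of complex III by 0.64 and Mrpl22 by 0.70, and Cox5a and Mrpl22 did not overlap between groups. The 2 that fell were the subunits that form the catalytic head of ATP synthase, Atp5b, by 0.27, and Atp5a1, by 0.22, which were singled out after their values were seen. Atp5b did not overlap between groups (12.86 to 12.94 against 13.04 to 13.23), and without the 5 mice the value for Atp5a1 was -0.18 (adjusted p = 0.138).

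The respiratory chain counts also changed with the mice included and when a trend over gene length was removed. As list means, complex I was 10.65 to 10.80 log2 in conventional mice 1 to 4, 10.30 and 10.20 in mice 5 and 6, and 10.01 to 10.25 in germ-free mice. Without the 5 mice 31 complex I subunits, 27 of complexes II to V and 17 mitochondrial ribosomal proteins were higher. For complexes II to V the count was 19 without conventional mouse 1, 17 without conventional mouse 3, 18 without conventional mouse 4 and 19 without germ-free mouse 2. With germ-free mice 2, 4 and 5 left out it was 1, as for complex I, and 2 for the mitochondrial ribosome. With the lard arrays alone the counts were 21 for complex I, 16 for complexes II to V and 18 for the mitochondrial ribosome. Genes differed by their genomic span, the distance from start to end in the reference table. When 19856 genes were divided by span into 5 equal bins, the shortest bin, with a median span of 1557 bases, had 447 genes higher and 43 lower in conventional mice. The longest bin, with a median of 111322 bases, had 139 higher and 628 lower. The part of span in the results was not tested beyond the step below. Across genes, which are not independent replicates, Spearman's rho between span and the difference was -0.298 with lard and -0.004 with fish oil. Of complex I subunits 25 of 34, and of complexes II to V 27 of 36, were in the 2 shortest bins, as were 25 of 27 chemokine and 13 of 15 acute-phase genes. When the trend over span was removed from each array, a step chosen after seeing the data, 24 complex I subunits, 17 of complexes II to V and 17 mitochondrial ribosomal proteins were higher, and none, 2 and none were lower. The same step left 4 acute-phase, 5 chemokine and 4 interferon-stimulated genes higher, and 8 lysosome, 7 matrix and 7 clock genes lower.

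**Figure D4:**
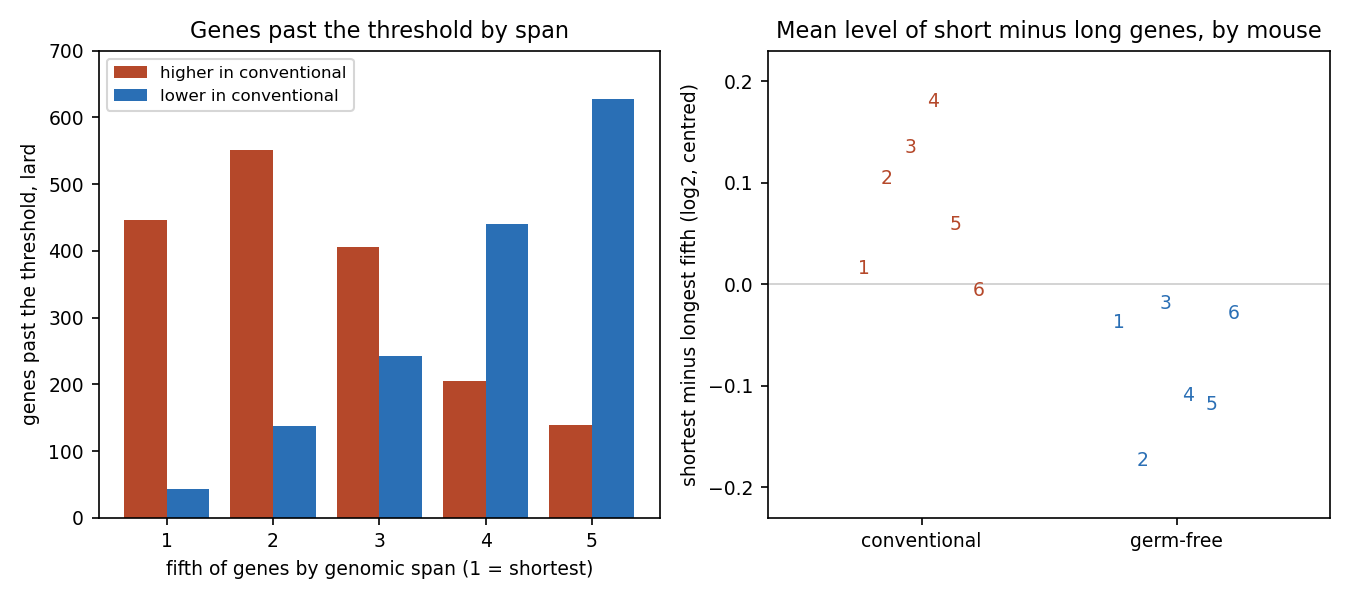
Left, number of genes past the threshold (limma adjusted p below 0.05) in each of 5 equal bins of genes by genomic span (bin 1 holds the shortest), higher or lower in conventional mice fed lard. Right, mean log2 level of the shortest minus that of the longest bin in each mouse, centred per gene on the 12 mice: conventional mice lie from -0.01 to 0.18 and germ-free mice from -0.17 to -0.02, so the groups do not overlap.

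Other energy pathways split. Of 18 genes of pyruvate use and the citric acid cycle 4 rose and 3 fell. Suclg1, the shared subunit of succinyl-CoA ligase, rose by 0.44, whereas its GTP-specific partner Suclg2 fell by 0.42, Ogdh, the oxoglutarate dehydrogenase, by 0.44 and Idh3a, of isocitrate dehydrogenase, by 0.22. Ogdh was 11.19 to 11.42 log2 in conventional and 11.50 to 11.99 in germ-free mice, without overlap (limma adjusted p = 0.000864). Suclg2 and Idh3a missed the threshold without any one of conventional mice 2 to 5 or germ-free mice 2, 4 and 5, with adjusted p up to 0.105 and 0.157, and Idh3a also without germ-free mouse 1 or 3. Without any one of the mice named for both, 1 gene of the list was lower, and the count of higher genes was 2 without conventional mouse 4 and 0 with the lard arrays alone. None of 22 genes of fatty acid synthesis, desaturation and elongation passed, and their median was 0.09. Of 22 genes of fatty acid oxidation 2 rose and 2 fell, together 18.2%, a share near the 16.3% of all genes that passed. The count of higher genes ran from 0, without any one of conventional mice 1 to 4 or germ-free mice 1, 2, 3 and 5, through 1, without germ-free mouse 4, and 4, without conventional mouse 5 or germ-free mouse 6, to 6, without conventional mouse 6.

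Of 18 genes of lipid uptake and triglyceride synthesis 3 fell and none rose. Slc27a1, a fatty acid transporter, ranged from 10.60 through 10.80 to 11.56 log2 in conventional and from 11.37 through 11.82 to 12.07 in germ-free mice, and fell by 0.81 ± 0.17 (limma adjusted p = 0.00206). Lpin1, a phosphatase of triglyceride synthesis, fell by 0.56, and without the 5 mice its value was -0.39 (adjusted p = 0.148). Of 15 genes of lipolysis and lipid droplets 4 fell and 2 rose; the count of higher genes was 0 without any one of conventional mice 1 and 3 or germ-free mouse 2, and 1 without any one of conventional mice 2, 4 and 5 or germ-free mice 3, 4 and 6. The glycerol channel Aqp7 fell by 0.41, the monoacylglycerol lipase Mgll by 0.40 and the droplet coat protein Plin1 by 0.28, whereas G0s2, an inhibitor of lipolysis, rose by 0.69. Acot2, a mitochondrial thioesterase, was 8.66 to 9.28 in conventional and 9.29 to 10.28 in germ-free mice, without overlap, and fell by 0.89 ± 0.14 (limma adjusted p = 0.000408). The carnitine transferase Cpt1a fell by 0.32, the glucose transporter Slc2a1 by 0.66 and Mest, which rises as fat expands, by 0.45. On the lists that hold Slc2a1 and Mest, 2 of 22 insulin and glucose genes and 2 of 16 adipokine and expansion markers fell, shares near the 7.48% of all genes. The first count was 5 without conventional mouse 1, and the second was 1 without any one of conventional mice 3 to 5 or germ-free mouse 4 and 0 without germ-free mouse 5 or 6. Adipoq and Lep, the adipokines adiponectin and leptin, differed by 0.06 ± 0.12 and 0.01 ± 0.12, and neither passed. For Plin1 the value without the 5 mice was -0.25 (adjusted p = 0.0843). G0s2 missed the threshold without any one of conventional mice 1 to 4 or germ-free mouse 2, and Mest without any one of conventional mice 3 and 4 or germ-free mice 4, 5 and 6, with adjusted p up to 0.0761 and 0.0653.

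Of 17 clock genes 7 fell in conventional mice and 1 rose, with a median of -0.39 log2. Without the 5 mice 8 fell and none rose, and without germ-free mice 2, 4 and 5, 1 fell. Dbp, a transcription factor that acts on D-box motifs, ranged from 8.53 through 8.78 to 9.56 in conventional and from 9.45 through 9.70 to 10.22 in germ-free mice. Only the highest conventional mouse reached the germ-free range, and Dbp fell by 0.89 ± 0.22 (limma adjusted p = 0.00593). Its relatives Tef and Hlf fell by 0.45 and 0.39, the repressors Per2, Per3, Bhlhe40 and Nr1d2 by 0.71, 0.63, 0.73 and 0.55. Arntl, or Bmal1, whose protein drives those genes and whose own level runs in the opposite phase, rose by 0.52. The core activator Clock had a difference of -0.12 and Nr1d1 of -0.07, neither past the threshold. The sources used here do not give the hour of sampling. Hlf missed the threshold without any one of conventional mouse 3 and germ-free mice 3 and 6 (adjusted p up to 0.0762), Nr1d2 without conventional mouse 3 (adjusted p = 0.0628), and Arntl without any one of conventional mice 2 to 4 or germ-free mice 3 to 6 (adjusted p up to 0.103). Of 6 clock genes past the threshold that had a promoter window, 1, Per3, held a D-box match and 1, Tef, a match to the E-box CACGTG, and 3.52% and 7.24% of all promoters held these.

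Klf9, a factor that is induced by glucocorticoids and follows the clock, ranged from 8.88 through 9.26 to 9.61 log2 in conventional and from 10.13 through 10.36 to 10.49 in germ-free mice. The groups were wholly separate, and Klf9 fell by 1.03 ± 0.14 (limma adjusted p = 0.000158), with -1.05 without the 5 mice. The glucocorticoid receptor Nr3c1 fell by 0.34, also without overlap, and these 2 were the only genes of 10 on the glucocorticoid list to pass. That share, 20.0%, was near the 16.3% of all genes that passed. For Nr3c1 the value without the 5 mice was -0.27 (adjusted p = 0.0551). Dusp1, a phosphatase of the immediate early response, fell by 0.70, and it missed the threshold without any one of conventional mice 1 and 3 or germ-free mouse 1 (adjusted p up to 0.0626). Of 21 immediate early genes 3 fell and none rose, 14.3% of the list and near the 16.3% of all genes that passed. The median of the list was 0.05 log2, and 12 of the 21 differences were positive.

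The largest falls outside these lists were in genes with diverse roles. Inmt, a methyltransferase for indole amines, ranged from 8.14 through 8.58 to 9.24 log2 in conventional and from 9.78 through 10.22 to 10.43 in germ-free mice, without overlap. It fell by 1.498 ± 0.26 (limma adjusted p = 0.000596), or 2.82-fold. Oxtr, the oxytocin receptor, was 9.73 to 10.71 in conventional and 10.77 to 12.03 in germ-free mice, and fell by 1.24 ± 0.21 (limma adjusted p = 0.000504). Pdcd4, an inhibitor of translation, was 10.21 to 10.78 in conventional and 10.98 to 11.69 in germ-free mice, and fell by 1.02 ± 0.11 (limma adjusted p = 4.33e-06). Sike1, which restrains the interferon kinases TBK1 and IKKepsilon, was at most 9.20 in 5 conventional mice, whereas conventional mouse 6, at 10.55, lay within the germ-free range of 10.32 to 10.73. Its difference was -1.12 ± 0.17 (limma adjusted p = 0.000327). Each of Inmt, Oxtr, Pdcd4 and Sike1 kept its call without the 5 mice, which include conventional mouse 6. Gpr50, an orphan relative of the melatonin receptors, was 9.46 to 11.64 in conventional and 11.77 to 12.30 in germ-free mice and fell by 1.27 ± 0.38 (limma adjusted p = 0.0244). It missed the threshold without any one of conventional mice 2 to 4 or germ-free mouse 5, with adjusted p up to 0.0783, and without the 5 mice (adjusted p = 0.0504).

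Several further genes separated the groups without overlap. Lrmda ranged from 7.32 through 7.66 to 7.98 log2 in conventional and from 9.53 through 9.89 to 10.11 in germ-free mice, a difference of -2.21 ± 0.10 (limma adjusted p = 4.45e-13). With fish oil the difference was -2.20 in other mice. Of 7 genes known to differ between C57BL/6 substrains 2 rose and 2 fell. Nnt, the mitochondrial transhydrogenase of which C57BL/6J mice carry a deleted form, was 9.09 to 9.50 in conventional and 8.51 to 8.90 in germ-free mice and rose by 0.60 ± 0.08 (limma adjusted p = 0.000182). Wdfy1 rose by 0.40, Entpd4 fell by 0.94 and Ide, the insulin-degrading enzyme, fell by 0.38, and none of these 4 overlapped between groups. Entpd4 has a near-identical copy in the mouse genome, with which its signal may be shared. For Ide the value without the 5 mice was -0.26 (adjusted p = 0.0926). With fish oil Nnt, Wdfy1 and Ide differed by 1.01, 0.57 and 0.36, all past the threshold, and Entpd4 by -0.59. Ide thus had opposite signs with the 2 fats (interaction limma adjusted p = 0.000844). Mamdc2 and Tmem267 fell by 1.46 and 1.16 with lard, and the same genes differed by -1.58 and -0.81 with fish oil. Colony and bacterial status cannot be told apart for these genes, as for every other result here.

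The intestinal transcripts that topped the list of falls came from few mice. Fabp2, the fatty acid carrier of enterocytes, reached 12.41 log2 in germ-free mouse 4, against 8.46 and 8.11 in mice 5 and 2. The other germ-free mice had 4.60 to 6.51 and the conventional mice 4.53 to 6.69. Its difference was -2.47 (limma adjusted p = 0.0321), and -0.61 without the 5 mice (adjusted p = 0.226). The differences of the brush border sucrase Sis, the goblet cell lectin Zg16 and the chloride channel regulator Clca4b were -2.07, -2.04 and -1.82, and became -0.19, -0.34 and -0.40 without the 5 mice, with adjusted p of 0.477, 0.431 and 0.117. All 4 also missed the threshold without some single mice, with adjusted p up to 0.0959. Of 19 intestinal transcripts 2 passed, both lower, or 10.5% against 16.3% of all genes. The count of lower ones was 1 without germ-free mouse 4 and 0 without any one of conventional mice 1 to 4 or germ-free mice 2 and 5. Without any one of conventional mice 5 and 6 or germ-free mice 5 and 6, 1 was higher. Of 22 liver transcripts 1 passed, Trf, which also is made in fat.

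Whether a difference depended on the fat was tested as an interaction, the difference with lard minus that with fish oil. With fish oil 12.4% of genes passed between conventional and germ-free mice, and the interaction passed for 7.2% of genes, 561 positive and 874 negative. When arrays were centred on their median, the interaction passed for 2000 genes, 312 of them positive, so the balance of signs depends on the scaling. The interaction count was 861 without conventional mouse 3 and 925 without germ-free mouse 4. It was 2710 without conventional mice 5 and 6, 225 without germ-free mice 2, 4 and 5, and 988 without all 5. Of the genes higher with lard 31.0% were also higher with fish oil, which is 38.0% of the genes higher with fish oil. Of those lower with lard 8.99% were also lower with fish oil, which is 12.9% of the genes lower with fish oil. Over all 19938 genes, 1425 were higher and 1039 lower with fish oil. Across genes, which are not independent replicates, the differences with lard and fish oil correlated with Pearson's r = 0.263 and Spearman's rho = 0.226, between sets that share no mice. Of the 3240 genes that passed with lard, 750, or 23.1%, also had an interaction past the threshold.

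Several acute-phase and chemokine rises depended on the fat. With fish oil Saa3 ranged from 8.20 to 9.64 log2 in conventional and from 7.99 to 9.64 in germ-free mice, a difference of 0.30, and its interaction was 1.64 ± 0.40 (limma adjusted p = 0.0149). The interaction was 2.01 for Ccl8, 1.46 for Lcn2, 1.39 for Ccl7, 1.27 for Cxcl10, 0.77 for Ccl22 and 0.66 for Cxcl12, each past the threshold. Of the genes that rose with lard, 3 of 5 acute-phase genes (Saa3, Lcn2 and Saa2), 5 of 6 chemokines (all but Ccl5) and 3 of 4 class II genes (all but Cd86) had a positive interaction. Over the whole lists 5 of 15, 6 of 27 and 7 of 11 did, some of them genes that did not pass with lard. Among all 1749 genes higher with lard, 189 had a positive interaction. The interaction contains the lard difference, so choosing genes that rose with lard favours a positive one. Liver transcripts moved with the interaction: with fish oil 18 of 22 were lower in conventional mice, 15 had a positive interaction and 1 a negative one. Their list means were 8.11 to 9.36 log2 in germ-free mice fed fish oil, 6.79 to 8.13 in conventional mice fed fish oil and 6.50 to 8.07 in all lard-fed mice. The part of liver transcripts in the interactions of acute-phase genes, of which Saa2 and Hp are also made in liver, was not tested. The falls of Oxtr, Inmt, Pdcd4, Sike1 and Acot2 depended on the fat as well, with interactions of -1.56, -1.51, -1.09, -1.097 and -1.13. With fish oil Oxtr was at most 8.79 in conventional and 8.37 in germ-free mice, below all lard-fed mice. Klf9 had an interaction of -0.65 (limma adjusted p = 0.0412).

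Most respiratory chain and lysosome genes did not have an interaction past the threshold. With fish oil 30 of 34 complex I subunits, 22 of 36 subunits of complexes II to V and 25 of 30 mitochondrial ribosomal proteins were higher in conventional mice, and 6 of 21 lysosome genes were lower. The interaction passed for 1, 3, 3 and 0 genes of these lists. Atp5b and Atp5a1, which fell with lard, differed by 0.13 and 0.10 with fish oil, neither past the threshold, with interactions of -0.40 and -0.32. Of the lipid-associated macrophage markers 10 of 16 were lower with fish oil, and no interaction passed. Atp6v0d2 differed by -1.78 with fish oil and Per2 by -0.88. Of 22 fatty acid synthesis genes 9 were higher with fish oil and none with lard, and 5 had a negative interaction past the threshold.

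**Figure D5:**
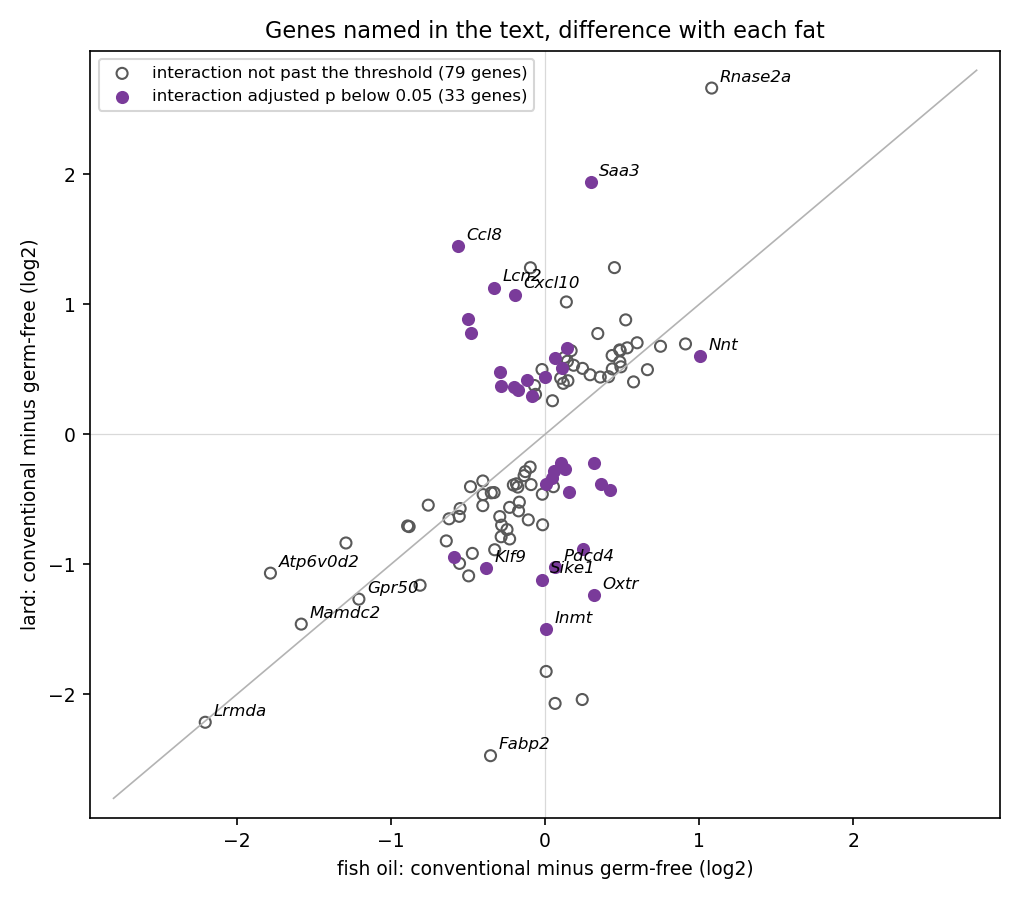
Difference of conventional minus germ-free means (log2) with lard, vertical axis, against the same difference with fish oil, horizontal axis, for 112 genes named in the text that passed with lard; the line marks equal differences. Filled points are the 33 genes whose interaction passed the threshold, of which Inmt and Pdcd4 lie near 0 and Ccl8 below 0 on the fish oil axis, while Lrmda lies on the line.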

How the data were processed

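The members and gene lists were chosen with earlier results of these data known. RNA from 24 mice was hybridised to one-colour Affymetrix arrays from 250 ng of total RNA each, per the labels' protocols. The deposited values are on a log2 scale and come from RMA, as the submitters' processing notes state; its version is not given in the sources used here. RMA usually makes array distributions alike, and weak signals are compressed, which understates changes of low genes. The number of arrays limits the precision. Of 35556 probe sets, 21789 had 1 symbol, 1621 several and 12146 none; only the first were used, 21698 were found in the reference table (GRCm38.p6) by Entrez ID, and the probe set with the highest mean was kept for each of 19938 genes.

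Means of the 4 groups were estimated over the 24 arrays (limma 3.58.1, functions lmFit and eBayes, R 4.3.3) and tested two-sided, with Benjamini-Hochberg adjustment over all genes and a threshold of 0.05. On simulated data for the lard comparison, with the same 19938 genes, 95% of genes changed by 1 log2 and 81% of those changed by 0.5 were recovered, with 5.38% false among calls. The simulated noise was normal and independent between genes, and no mouse stood apart from its group. The real mice differ in this, so these rates need not hold for them. Genes were named by rule: the 30 largest rises and 30 largest falls past the threshold, up to 8 members of each of 57 lists, 15 interactions each way and a panel of 40 genes, leaving out clone and predicted names; Atp5a1, Atp5b, Clock, Nr1d1 and Fabp4 fall outside it and were named once their values were known. The settings changed in turn were median centring, repeated quantile normalization, leaving out genes below the 40th percentile of mean level, averaging a gene's probe sets, weighting arrays, robust priors with a trend, the lard arrays alone, all probe sets, at least 1.5-fold, the mouse number as a block, and mice left out. Removing the trend over gene span, with and without the 5 mice, and centring without the 5 mice were added after seeing the data.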

Additional observations from a re-analysis of the deposited data

Results flagged for a closer look

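In groups of 6 mice, some values lay far from the other 5 of their group, by Dixon's criterion. Of 338 such checks on the genes named above and on list means 22 were marked, and chance marks about 1 in 20. In germ-free mouse 6 lymphoid genes were high: Ccl5 at 10.34 log2, Klrd1 at 6.63, Cd7 at 7.48 and the mean of the natural killer and cytotoxic markers at 7.02, whereas Irak3 was low at 9.79. In germ-free mouse 4 Clca4b was 10.94 and the mean of the intestinal transcripts 9.02. In germ-free mouse 2 Ebp was 9.69, Ffar2 8.76 and the mean of complexes II to V 11.04, each the lowest of its group. In germ-free mouse 1 the list means of antioxidant genes and eicosanoid enzymes were 10.97 and 9.38. In conventional mouse 5 Plin1 was 12.15, Mgll 11.46, Mamdc2 9.39, Fabp2 6.69, Zg16 6.20 and the mean of the progenitor markers 10.20. In conventional mouse 6 Tnfaip3 was 8.40, Acot2 9.28 and Sike1 10.55. In conventional mouse 4 the mean of the unfolded protein and amino acid stress list was 9.75.

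The difference between conventional and germ-free mice differed between the fats for 33 of the 112 named genes, by the interaction term in limma. Larger with lard than with fish oil were Ccl8 (2.01 log2), Saa3 (1.64), Lcn2 (1.46), Ccl7 (1.39), Cxcl10 (1.27), Cd209a (1.26), Ccl22 (0.77), Cxcl12 (0.66), H2-DMa (0.56), Saa2 (0.54), Zbp1 (0.53), Psmb8 (0.52), H2-Ob (0.52), Psmb9 (0.44), Ebp (0.40) and H2-Oa (0.38). Negative interactions were found for Oxtr (-1.56), Inmt (-1.51), Acot2 (-1.13), Sike1 (-1.097), Pdcd4 (-1.09), Suclg2 (-0.85), Ide (-0.75), Klf9 (-0.65), Ogdh (-0.60), Idh3a (-0.54), Nnt (-0.41), Atp5b (-0.40), Tirap (-0.39), Nr3c1 (-0.39), Entpd4 (-0.35), Plin1 (-0.34) and Atp5a1 (-0.32).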

How the results depend on the processing

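Among the 112 named genes no direction was reversed under any alternative. The number that kept their call was 110 with median centring, 109 with repeated quantile normalization, 105 with a trend and robust priors, 97 with the span trend removed, 85 with the lard arrays alone, 81 without the 5 mice and 20 without germ-free mice 2, 4 and 5. Leaving out 1 mouse at a time gave 2253 to 4302 genes past the threshold against 3240. The count moved by more than 1.5 times with all probe sets (5053), array weights (5033), conventional mice 5 and 6 left out (5079), germ-free mice 2, 4 and 5 left out (177) and at least 1.5-fold (294). For the interaction, array weights gave 2526 and at least 1.5-fold 385 against 1435. With median centring the interaction passed for 2000 genes, 15.6% positive against 39.1%, and the fish oil comparison for 3458, 79.7% higher against 57.8%. Mouse numbers are shared between groups but did not pair the mice: deviations of same-numbered lard-fed mice correlated from -0.497 to 0.259, and 1 of 6 pairs lay over 0.1. With the number as a replicate block 2968 genes passed with lard against 3240, and 103 of the 112 genes kept their call. The number of mice and the compression of weak signals by arrays limit what can be detected.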
